A study of Mus musculus with 6 samples.

Results

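Cytochrome P450 genes were followed in sorted cells of mouse small-cell lung cancer (SCLC). They were taken as every gene whose symbol has the form Cyp, a family number, a subfamily letter and a gene number, except Cyp2f2, and each gene was represented by its row of highest mean across the 6 arrays. This gave 88 genes of the 22179 measured. The symbol chose the genes and the mean over both groups chose the row. The family was proposed with results of the same comparison known, so its counts describe these arrays and are no independent evidence. All tumours came from mice in which intratracheal adenoviral Cre (Adeno-Cre) deleted conditional alleles of Rb, p53 and p130 and which carried a GFP reporter allele for Hes1, a repressor induced by Notch signalling. Tumours were taken 5 to 6 months after Cre, pooled, and flow cytometry separated GFP-high from GFP-negative cells, the latter also labelled negative or low. The sort protocol speaks of 3 mice to a pool and the source label of a single mouse. Both groups therefore come from mice with the same 3 conditional alleles, reporter and adenoviral delivery, and differ by the sort. Whether every sorted cell carried the deletions was not tested. Ages, the gates and any removal of other cell types before the sort were not stated in the labels. There were 3 Affymetrix Mouse Gene 2.0 ST arrays of each group, labelled as biological replicates; the labels do not say whether each came from its own pool, so p-values measure the spread between these samples.

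P450 enzymes are haem proteins that insert an oxygen atom into their substrate, using electrons passed from P450 reductase, cytochrome b5 or, in mitochondria, ferredoxin. Members of the CYP1, CYP2 and CYP3 families mostly clear foreign compounds, those of CYP4 hydroxylate the ends of fatty acids, and the others make or break down sterols, steroid hormones, bile acids, retinoic acid and vitamin D. The liver holds most of them. In the lung, the club cells of the airway are the best known P450-rich cell type and are injured by inhaled or circulating compounds that these enzymes activate.

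The labels were checked on the reporter gene and on cell type markers. On the log2 scale used for all values here, Hes1 was at 10.49, 10.27 and 10.43 after sorting for high GFP and at 6.93, 6.98 and 6.65 without GFP. All 9 measured neuroendocrine markers were lower in GFP-high cells, where their mean level was 7.42 to 8.44 per array against 10.03 to 10.07. Markers of other lung cells moved with the sort. For 10 of 11 club and secretory markers the level was higher in GFP-high cells (mean level 10.72 to 11.13 against 6.78 to 7.40), as it was for 10 of 11 alveolar type 2 markers (9.45 to 9.85 against 6.13 to 6.51) and 9 of 9 alveolar type 1 markers (8.75 to 9.06 against 6.67 to 6.79). Of 10 leukocyte and macrophage markers none was higher and 1 was lower (5.21 to 5.51 against 5.34 to 5.63). Of 8 ciliated cell markers 1 was higher and 2 lower, of 9 endothelial markers 2 were higher, of 8 fibroblast markers 1 was lower, and of 8 hepatocyte markers 1 was higher and 1 lower. Beside these marker counts, 13.0% of all genes were higher and 17.0% lower at an adjusted p under 0.05 (limma). Whether the counts of any marker list differ from those shares was not tested. Log2 RMA values have no true zero, so no marker can be called absent. In sorted bulk samples, fewer cells of a type and less RNA per cell cannot be told apart. The part of club and alveolar cells in the P450 differences below was not tested.

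A small set of P450 genes was far higher in GFP-high cells, and most of the family had no call. Cyp4b1, Cyp4f15, Cyp2b10, Cyp1b1 and Cyp2s1 had the highest fitted folds, 11.3 to 37.3. Their order is not read as a ranking: the GFP-negative means of Cyp4f15 (4.01), Cyp2b10 (4.08) and Cyp1b1 (4.63) lay below 4.75, the level under which 30% of genes fall by their mean over all arrays. The same held for the lower group of Cyp3a13 (3.40) and Cyp2a4 (2.86), so for 5 of the 12 members with a called difference of at least 1. How far these values lay above background was not tested, so those 5 folds are fitted values and may understate the difference. At an adjusted p under 0.05 (limma, Benjamini-Hochberg over all genes), 16 of the 88 members were higher (18.2%; 13.0% of all genes), 2 were lower (2.27%; 17.0% of all genes) and 70 had no call. Changes of at least 1 on the log2 scale were called for 10 members as higher (11.4%; 5.63% of all genes) and for 2 as lower (2.27%; 6.02% of all genes). The median log2 fold change was 0.12 over the members and 0.01 over all genes. The 3 values of a group lay wholly on one side of the other group's for 23 members (26.1%), beside 44.6% of all genes. Members without a call ranged from -0.40 to 0.57 in log2 fold change, with 95% intervals that reached from -0.90 to 1.19. A filter on the mean over all 6 arrays that removes the lowest 30% of genes kept 32 members and left out 56, and 52 of the 70 members without a call were among those left out. It kept 15525 of the 22179 genes. Cyp4f15, Cyp2b10 and Cyp1b1 passed it through their GFP-high values, so passing the filter and having a call are not independent.

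**Figure D1:**
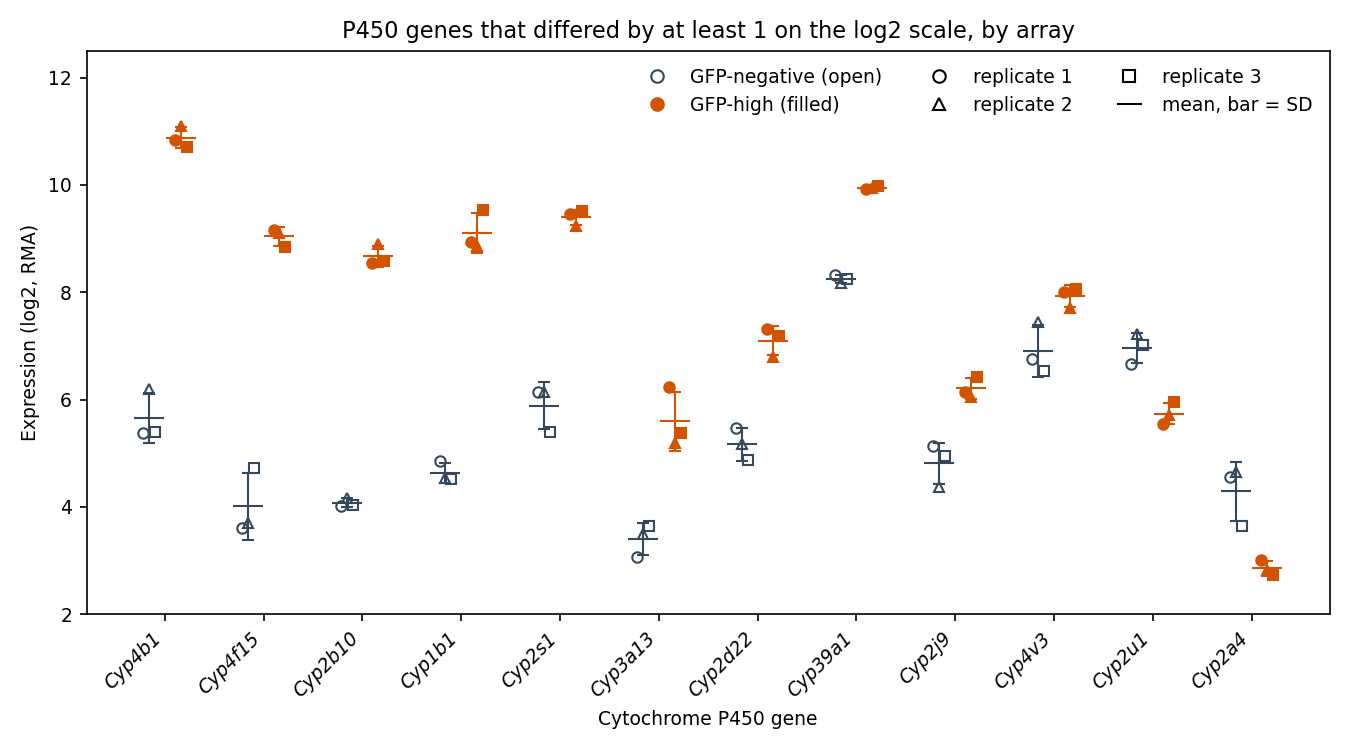
Log2 expression (vertical axis) of the 12 P450 genes that were called with a log2 fold change of at least 1, on each of the 3 GFP-negative (open) and 3 GFP-high (filled) arrays. Lines are means with SD. For each gene the groups do not overlap; the narrowest gap is that of Cyp4v3 (0.26) and the widest that of Cyp4b1 (4.50).

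The promoters of the 5 members with the highest fitted folds and of Cyp2a4, which was lower, are shown so that genes which moved together can be compared. Each runs from 250 bases before to 50 after the RefSeq start, 5′ to 3′ along the gene, in the build GRCm38.p6. Capitals mark matches on either strand to any of 5 short motifs: the core of the xenobiotic response element bound by the aryl hydrocarbon receptor (GCGTG), the core bound by RBPJ, the DNA-binding partner of Notch (TGGGAA), the N-box (CACNAG) and class C E-box (CACGNG) bound by Hes repressors, and the TATA box (TATAAA).
Cyp4b1 (chr4:115647672-115647971, minus strand): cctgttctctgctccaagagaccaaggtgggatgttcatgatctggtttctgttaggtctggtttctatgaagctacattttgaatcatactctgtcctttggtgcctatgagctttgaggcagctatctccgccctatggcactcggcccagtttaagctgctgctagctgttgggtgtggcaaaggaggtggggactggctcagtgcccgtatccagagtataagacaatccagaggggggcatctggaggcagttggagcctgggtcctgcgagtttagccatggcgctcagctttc
Cyp4f15 (chr17:32685409-32685708, plus strand): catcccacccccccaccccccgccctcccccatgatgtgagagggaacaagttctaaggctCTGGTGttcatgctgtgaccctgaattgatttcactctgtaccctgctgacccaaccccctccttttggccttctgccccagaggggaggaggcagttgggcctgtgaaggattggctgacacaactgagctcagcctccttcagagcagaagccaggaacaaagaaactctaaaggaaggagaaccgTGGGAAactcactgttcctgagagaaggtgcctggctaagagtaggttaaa
Cyp2b10 (chr7:25897408-25897707, plus strand): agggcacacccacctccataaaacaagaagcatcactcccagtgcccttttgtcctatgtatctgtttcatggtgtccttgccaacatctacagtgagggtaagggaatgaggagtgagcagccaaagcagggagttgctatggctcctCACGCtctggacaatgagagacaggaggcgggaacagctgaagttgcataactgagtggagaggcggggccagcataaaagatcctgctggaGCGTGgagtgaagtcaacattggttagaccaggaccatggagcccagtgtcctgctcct
Cyp1b1 (chr17:79715012-79715311, minus strand): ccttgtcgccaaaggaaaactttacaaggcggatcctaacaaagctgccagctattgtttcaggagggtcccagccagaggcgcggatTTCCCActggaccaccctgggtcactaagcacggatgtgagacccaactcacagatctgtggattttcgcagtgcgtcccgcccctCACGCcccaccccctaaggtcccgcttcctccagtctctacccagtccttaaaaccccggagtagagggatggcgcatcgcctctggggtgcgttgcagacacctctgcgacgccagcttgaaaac
Cyp2s1 (chr7:25816476-25816775, minus strand): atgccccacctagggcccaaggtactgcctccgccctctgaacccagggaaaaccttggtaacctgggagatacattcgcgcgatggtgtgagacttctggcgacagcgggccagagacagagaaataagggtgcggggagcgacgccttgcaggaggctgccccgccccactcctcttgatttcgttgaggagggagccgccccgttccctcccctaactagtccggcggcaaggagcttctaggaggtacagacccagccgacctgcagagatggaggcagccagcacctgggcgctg
Cyp2a4 (chr7:26306942-26307241, plus strand): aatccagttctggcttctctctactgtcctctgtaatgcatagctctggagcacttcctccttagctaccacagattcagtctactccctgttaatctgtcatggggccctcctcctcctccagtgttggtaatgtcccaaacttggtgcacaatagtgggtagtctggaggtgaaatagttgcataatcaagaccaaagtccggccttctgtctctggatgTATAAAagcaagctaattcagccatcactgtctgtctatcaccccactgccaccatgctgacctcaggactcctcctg

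The promoters of Cyp1b1 and Cyp2b10 held the xenobiotic response element core, once at -76 in Cyp1b1 and at -101 and -9 in Cyp2b10 (first base of the match, counted from the start). The core was in 32.4% of all 32851 promoters in the RefSeq table and in 21.1% of the 76 promoters of 68 members found there. The RBPJ core, at -162 in Cyp1b1 and -1 in Cyp4f15, was in 25.6% of all promoters and 38.2% of member promoters. An N-box lay at -189 in Cyp4f15, with 42.5% of all promoters and 44.7% of member promoters holding one. The class C E-box was in 27.5% of all and 10.5% of member promoters and in none of the 6 shown. The TATA box of Cyp2a4 at -28 is a motif held by 13.6% of all and 36.8% of member promoters. No match to the 5 motifs lay in the windows of Cyp4b1 and Cyp2s1. GC content ran from 49.0% in Cyp2a4 to 63.0% in Cyp2s1, with a median of 52.7% over all promoters. These matches describe letters and were not linked to the measured differences. Promoters of Cyp39a1, Cyp2d22 and Cyp2u1 were not used here.

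In the CYP1 family, which oxidises polycyclic aromatic hydrocarbons and oestrogens, Cyp1b1 was called and Cyp1a1 and Cyp1a2 were not. Cyp1b1 read 8.93, 8.86 and 9.54 in GFP-high and 4.85, 4.53 and 4.52 in GFP-negative arrays. Every GFP-high value was above every GFP-negative one by at least 4.01, and GFP-high replicate 3 was the highest. The log2 fold change was 4.48 ± 0.19 (SE, n = 3 per group; 22.3-fold, limma adjusted p = 1.09e-06). Cyp1a1, the classic target of the aryl hydrocarbon receptor, read 4.77, 5.17 and 4.97 against 4.64, 4.71 and 4.84, and the groups overlapped. Its log2 fold change was 0.24 with a 95% interval of -0.06 to 0.55. Cyp1a2, a mainly hepatic enzyme, had 4.95 ± 0.22 against 4.90 ± 0.05 (SD, n = 3), with an interval of -0.26 to 0.36.

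Of the 23 CYP2 members of the A, B, D, E, G, S, T and W subfamilies, which mostly handle foreign compounds, 4 were higher (17.4%). In this group 1 was lower (4.35%) and 18 had no call, beside 13.0% of all genes higher and 17.0% lower. Cyp2b10, the phenobarbital-inducible P450 of mouse liver that is also made in the lung, read 8.54, 8.89 and 8.58 in GFP-high arrays and 4.02, 4.17 and 4.04 in GFP-negative arrays. The groups did not overlap, and the fitted difference from that low level was 4.59 ± 0.13 (24.1-fold, adjusted p = 1.83e-07 by limma). Cyp2s1, an enzyme of epithelia outside the liver, read 9.45, 9.24 and 9.51 against 6.14, 6.14 and 5.40. GFP-negative replicate 3 lay below the other two, and the groups were separated by 3.10. Cyp2s1 was 11.3-fold higher (3.50 ± 0.20, adjusted p = 5.91e-06 by limma). Cyp2d22, regarded as the mouse counterpart of human CYP2D6, read 7.31, 6.80 and 7.19 against 5.48, 5.17 and 4.87 and was 3.80-fold higher (1.93 ± 0.19, adjusted p = 0.000116 by limma). The other called rise was small: Cyp2g1, a P450 of olfactory tissue, read 3.60, 3.73 and 3.62 against 3.39, 3.30 and 3.26 (0.34 ± 0.11, adjusted p = 0.0463 by limma). That call was lost when any one array was left out (adjusted p up to 0.127 over the alternatives).

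Cyp2a4, a testosterone hydroxylase, was lower, with its GFP-high values near the bottom of the scale. Its values were 3.01, 2.82 and 2.74 in GFP-high arrays and 4.56, 4.65 and 3.65 in GFP-negative arrays, so GFP-negative replicate 3 was the closest to the GFP-high group. The log2 fold change was -1.43 ± 0.25 (adjusted p = 0.00235 by limma), and without moderation of the variance the adjusted p was 0.052. Its close paralogue Cyp2a5, the coumarin hydroxylase, read 3.71, 2.80 and 2.68 against 3.50, 3.32 and 3.12, with overlapping groups and a 95% interval of -0.84 to 0.33. Whether the probes keep the pair apart was not tested. Cyp2e1, the ethanol-metabolising P450, had no call (0.21 ± 0.16, adjusted p = 0.370 by limma).

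The 22 CYP2C, CYP2J and CYP2U members, many of which turn arachidonic acid into epoxides or hydroxy acids, held 2 rises (9.09%) and 1 fall (4.55%). The other 19 had no call, and over all genes 13.0% were higher and 17.0% lower. Cyp2j9, an arachidonic acid hydroxylase, read 6.14, 6.05 and 6.42 in GFP-high arrays and 5.13, 4.37 and 4.94 in GFP-negative arrays. The groups lay 0.92 apart, and the difference was 1.39 ± 0.20 (2.62-fold, adjusted p = 0.000891 by limma). Cyp2j6 was higher by 0.48 ± 0.13 (adjusted p = 0.0193 by limma). The Cyp2j6 call did not hold without GFP-high replicate 1, GFP-high replicate 3 or GFP-negative replicate 3 (adjusted p up to 0.0736 over the alternatives). Cyp2u1, a fatty acid hydroxylase, went the other way, with 5.55, 5.72 and 5.95 in GFP-high and 6.66, 7.22 and 7.01 in GFP-negative arrays. It was 2.34-fold lower (-1.22 ± 0.17, adjusted p = 0.000712 by limma). None of the 14 CYP2C genes was called with all arrays and moderation. Cyp2c29 and Cyp2c55 were called without GFP-high replicate 3, Cyp2c37 without GFP-negative replicate 1 and Cyp2c68 without moderation. The largest difference among the 14 was that of Cyp2c65 (0.57 ± 0.24, adjusted p = 0.118 by limma). Cyp2c55 and Cyp2c29 each had a second row, which had no call with all arrays (0.08 and -0.18).

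CYP3A enzymes are the main drug-metabolising P450s of liver and gut. Of 7 members 2 were higher (28.6%, beside 13.0% of all genes). Cyp3a13, a form expressed outside the liver, read 6.23, 5.20 and 5.38 in GFP-high and 3.06, 3.49 and 3.64 in GFP-negative arrays. GFP-high replicate 1 stood above the other 2, and the difference was 2.20 ± 0.27 (4.61-fold, adjusted p = 0.000362 by limma). Cyp3a59 differed by 0.43 ± 0.13 (adjusted p = 0.0418 by limma), a call lost without any one array except GFP-high replicate 3. Cyp3a11, the abundant hepatic form, was 3.89 against 4.10 with an interval of -0.54 to 0.11.

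The CYP4 family adds a hydroxyl group to the far end of fatty acids and eicosanoids. Of its 15 members 6 were higher (40.0%, beside 13.0% of all genes) and 9 had no call. Cyp4b1, the lung P450 that activates the pneumotoxin ipomeanol, had the highest fitted fold of the members. It read 10.84, 11.10 and 10.70 in GFP-high and 5.38, 6.20 and 5.39 in GFP-negative arrays, 37.3-fold apart (5.22 ± 0.23, adjusted p = 1.09e-06 by limma). GFP-negative replicate 2 was the highest of its group. Cyp4f15 read 9.16, 9.11 and 8.85 against 3.60, 3.70 and 4.73, with GFP-negative replicate 3 above the others of its group. The fitted Cyp4f15 difference from that low level was 5.03 ± 0.28 (32.7-fold, adjusted p = 4.31e-06 by limma). Cyp4v3, the mouse form of the fatty acid hydroxylase gene mutated in Bietti crystalline dystrophy, read 8.00, 7.70 and 8.07 against 6.75, 7.45 and 6.54. Its groups were only 0.26 apart, because GFP-negative replicate 2 was close to the GFP-high values (1.01 ± 0.23, adjusted p = 0.00921 by limma, 0.0885 without moderation). Just under a difference of 1 were Cyp4f13 (0.85 ± 0.20, adjusted p = 0.0116 by limma, 0.0907 without moderation) and Cyp4f39 (0.79 ± 0.11). Cyp4f16 was higher by 0.45 ± 0.15 (adjusted p = 0.0483 by limma). The Cyp4f16 call was lost without any one array except GFP-negative replicate 3, with adjusted p up to 0.153 over the alternatives. The 3 CYP4A members, the peroxisome proliferator-inducible enzymes of liver and kidney, had differences of -0.17 to 0.12 and no call.

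**Figure D2:**
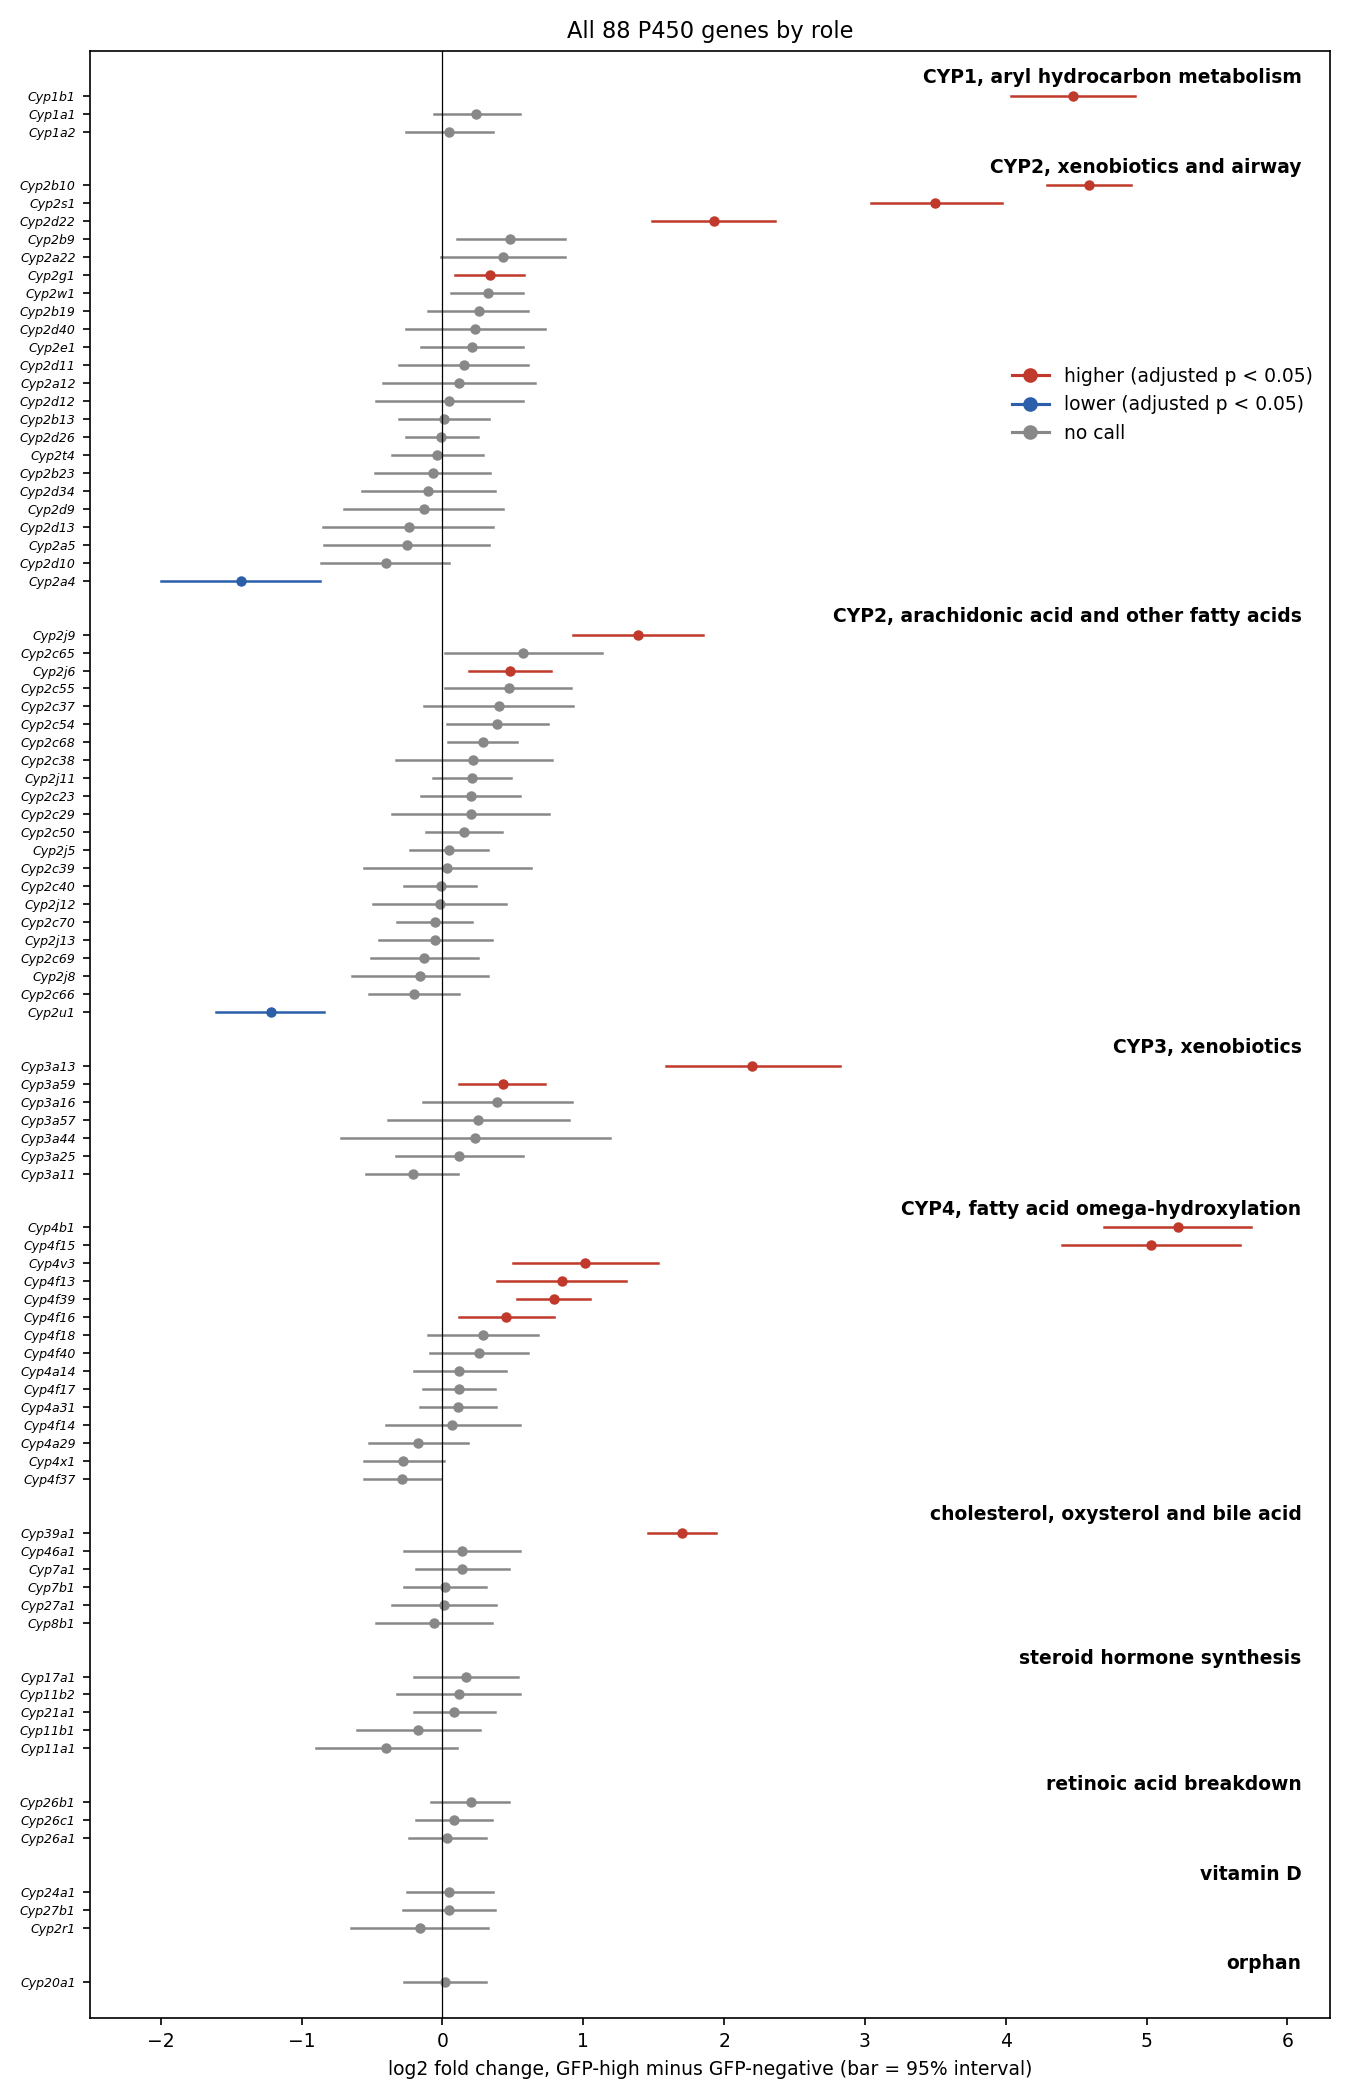
Log2 fold change (horizontal axis, GFP-high minus GFP-negative, n = 3 per group) of all 88 P450 genes with 95% intervals, grouped by role. The 16 higher members are red, the 2 lower blue and the 70 without a call grey, beside 13.0% of all genes higher and 17.0% lower. Large rises sit in the CYP1 to CYP4 families, and of the sterol, steroid, retinoid and vitamin D enzymes Cyp39a1 is the one with a call.

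Among the 6 enzymes of cholesterol, oxysterol and bile acid metabolism, Cyp39a1, an oxysterol hydroxylase, was higher (16.7%, beside 13.0% of all genes). It read 9.93, 9.94 and 9.98 in GFP-high and 8.32, 8.18 and 8.25 in GFP-negative arrays, with the least spread of the called members shown by array (1.70 ± 0.10, 3.24-fold, adjusted p = 8.20e-06 by limma). The bile acid enzymes Cyp7a1 (3.10 against 2.97), Cyp8b1 (4.88 against 4.94) and Cyp27a1 (4.02 against 4.01) had no call. The same held for the oxysterol hydroxylase Cyp7b1 (5.29 against 5.28) and the neuronal cholesterol hydroxylase Cyp46a1 (6.15 against 6.02). None of the 5 steroid hormone enzymes was called. Their levels were 4.97 against 5.37 for Cyp11a1, which starts steroid synthesis, 3.99 against 4.16 for Cyp11b1, 4.27 against 4.15 for the aldosterone synthase Cyp11b2, 4.11 against 3.94 for Cyp17a1 and 4.03 against 3.95 for Cyp21a1. The 2 rows of Cyp11a1 pointed in opposite directions (-0.40 and 0.11), neither with a call.

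The retinoic acid hydroxylases had no call, with 4.33 against 4.30 for Cyp26a1, 5.84 against 5.65 for Cyp26b1 and 4.44 against 4.36 for Cyp26c1. Their 95% intervals together spanned -0.24 to 0.47. The vitamin D enzymes were alike in this: Cyp24a1, which inactivates the hormone, was 4.75 against 4.70, Cyp27b1, which activates it, 4.88 against 4.83, and the liver hydroxylase Cyp2r1 6.31 against 6.47. The orphan Cyp20a1 was 7.73 against 7.72 (interval -0.27 to 0.31).

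P450 genes lie in tandem arrays, and no run of neighbours was called throughout. In the RefSeq gene order, 66 of the 87 members found there fell into 10 runs of neighbours, a run having at most 5 other coding genes between one member and the next. The longest, of 13 Cyp2c genes, had no call. In the run of 12 genes from Cyp2s1 to Cyp2t4, Cyp2s1 and Cyp2b10 are next to each other and were higher by 3.50 and 4.59. Cyp2b13, the next gene after them, was at 0.01 ± 0.14, from a low level in both groups (3.22 against 3.22). The same run holds Cyp2a4, which fell, and Cyp2g1. In the run of 8 Cyp4f genes, Cyp4f15 was higher by 5.03, and the next members on its sides had no call. Cyp4f40, directly beside it, was at 0.26 ± 0.15 (4.35 against 4.09). Cyp4f14, with 4 other coding genes between, was at 0.07 ± 0.21 (3.58 against 3.51). In the Cyp2d run of 8, Cyp2d22 at one end was higher and the other 7 had no call. Of the 7 Cyp2j genes the adjacent Cyp2j6 and Cyp2j9 were higher. In the run of 5 with Cyp4b1, Cyp4x1 and the Cyp4a genes had no call (Cyp4x1 -0.28 ± 0.13). Beside these run counts, 13.0% of all genes were higher and 17.0% lower, so most genes had no call. Whether the counts of any run differ from those shares was not tested. Differences between neighbours were not tested themselves. The missing calls of Cyp2b13, Cyp4f40 and Cyp4f14, all below 4.75 in both groups, are not read as a lack of response.

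**Figure D3:**
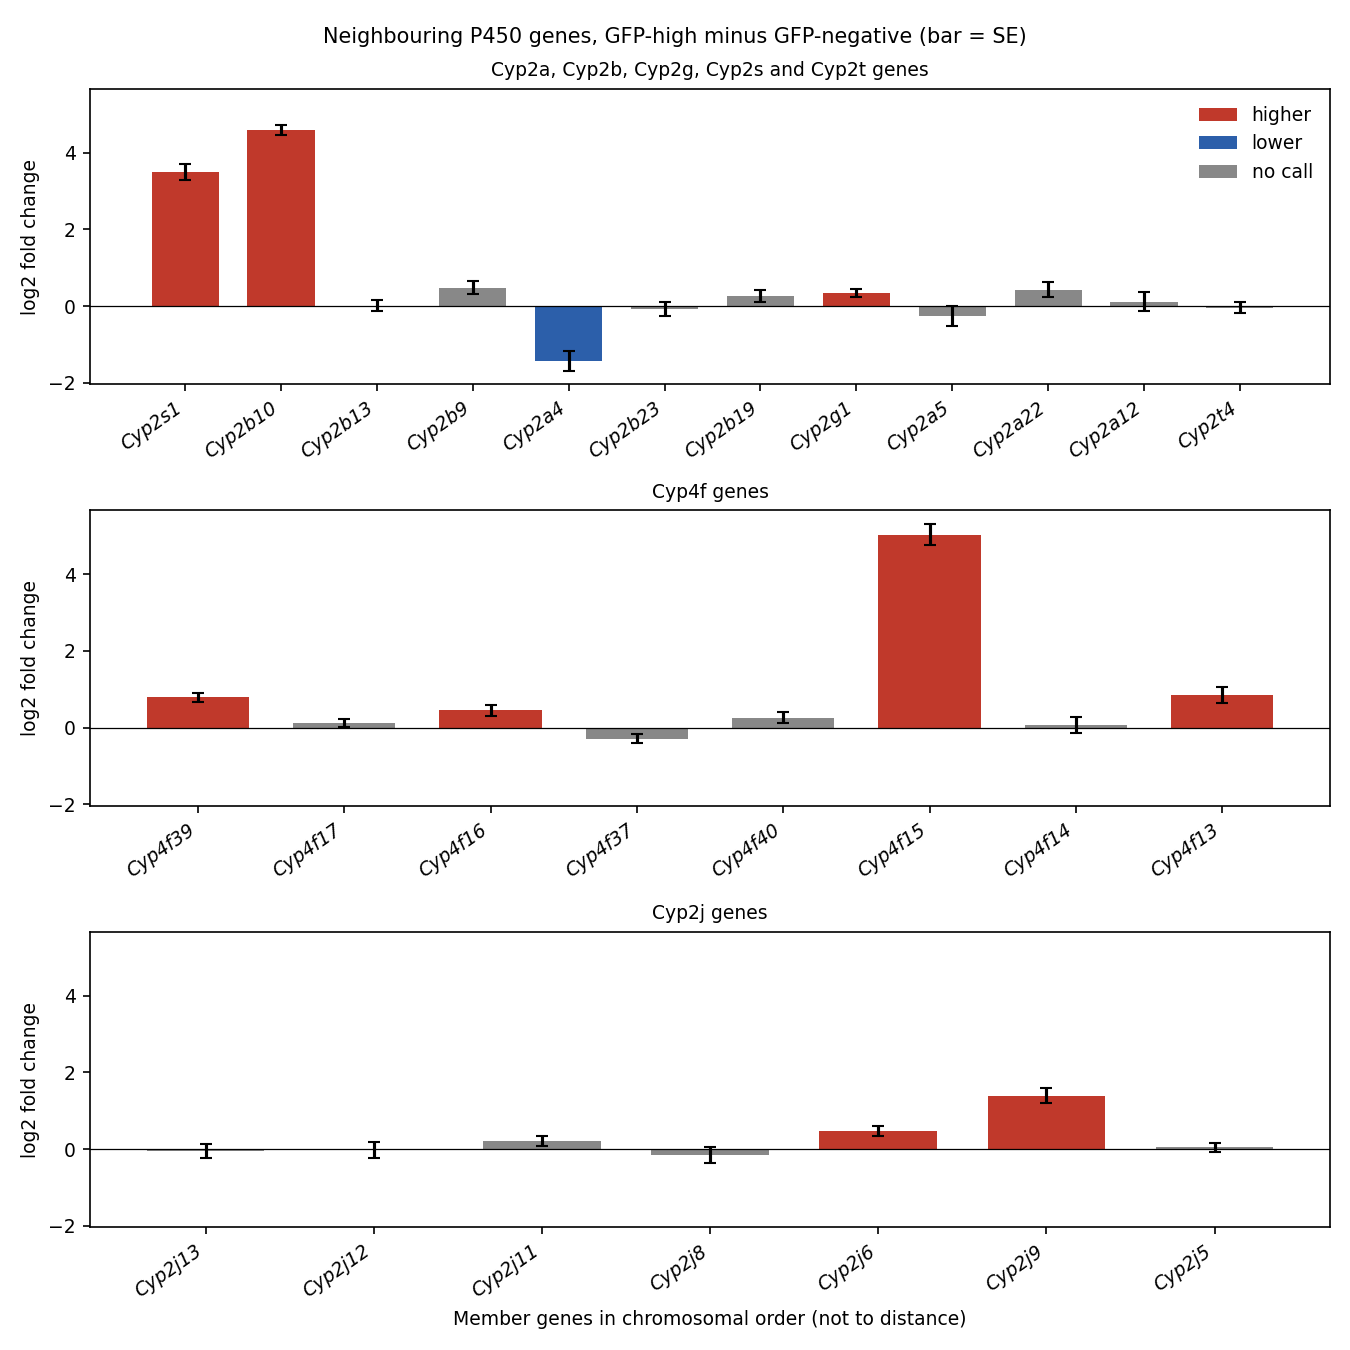
Log2 fold change (vertical axis, GFP-high minus GFP-negative, bars with SE, n = 3 per group) of member genes in chromosomal order for the runs that hold Cyp2s1, Cyp4f15 and Cyp2j9. Cyp2b10 at 4.59 stands beside Cyp2b13 at 0.01, and the members on either side of Cyp4f15 at 5.03 are Cyp4f40 at 0.26 and Cyp4f14 at 0.07. Cyp2b13, Cyp4f40 and Cyp4f14 lay at low levels in both groups.

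The 10 members higher by at least 1 were chosen on these same arrays, so likeness between the 3 GFP-high arrays is partly built in. Over these members the median excess above the mean without GFP was 3.20, 2.57 and 2.81 in GFP-high replicates 1, 2 and 3. Replicate 2 was the lowest of the GFP-high arrays for 6 of these genes, replicate 3 the highest for 5 and the lowest for 2. Over all 18 called members replicate 3 was the highest for 6 and the lowest for 5. The mean neuroendocrine marker level was 7.65, 7.42 and 8.44 in the 3 arrays, and its part in these values was not tested. Without GFP-high replicate 3, 17 members were called, 15 higher and 2 lower.

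Genes that act with or upstream of P450 enzymes moved in both directions. Of 28 measured regulators of P450 transcription 10 were higher (35.7%; 13.0% of all genes), 4 lower (14.3%; 17.0% of all genes) and 14 had no call. The 4 lower ones were Hlf (-0.73), Nr0b2 (-0.67), Foxa1 (-0.64) and Foxa2 (-0.54). Ahr, the aryl hydrocarbon receptor, read 11.03, 11.07 and 11.08 in GFP-high and 7.77, 8.04 and 7.47 in GFP-negative arrays, 9.86-fold apart (3.30 ± 0.15, adjusted p = 1.51e-06 by limma). Its partner Arnt (0.17 ± 0.12) and its target genes Ahrr (-0.12 ± 0.16) and Tiparp (0.02 ± 0.17) had no call, and neither did Nr1i3 (0.12 ± 0.14), which encodes the receptor CAR that drives Cyp2b10 in liver, or Nr1i2 (-0.10 ± 0.12), which encodes the drug sensor PXR. The lower regulators and the 5 genes from Arnt to Nr1i2 were picked for mention with their values known. Ahrr (4.07 against 4.18), Nr1i3 (4.71 against 4.59) and Nr1i2 (4.15 against 4.25) lay below 4.75 in both groups, while Arnt and Tiparp did not. The activity of these receptors was not tested. Cebpa (1.38 ± 0.17), Nfe2l2 (1.31 ± 0.15), which encodes the oxidative stress factor NRF2, and Pparg (1.28 ± 0.18) were higher. Of 16 genes for electron donors and haem supply 7 were higher, 2 lower and 7 had no call. Alas1, the rate-limiting enzyme of haem synthesis, read 11.07, 10.97 and 10.63 against 8.66, 8.52 and 8.38 and was 5.16-fold higher (2.37 ± 0.15, adjusted p = 8.57e-06 by limma). Cyb5a, cytochrome b5, was higher by 1.51 ± 0.15, the haem-degrading Hmox1 by 1.05 ± 0.12 and ferredoxin, Fdx1, by 0.98 ± 0.17. Cyb5b, the cytochrome b5 of the outer mitochondrial membrane, was lower (-0.87 ± 0.11, adjusted p = 0.000377 by limma), as was the cytochrome b5 reductase Cyb5r3 (-0.57 ± 0.13, adjusted p = 0.0104 by limma), both named with their values known. Por, the common P450 reductase, was not analysed here.

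**Figure D4:**
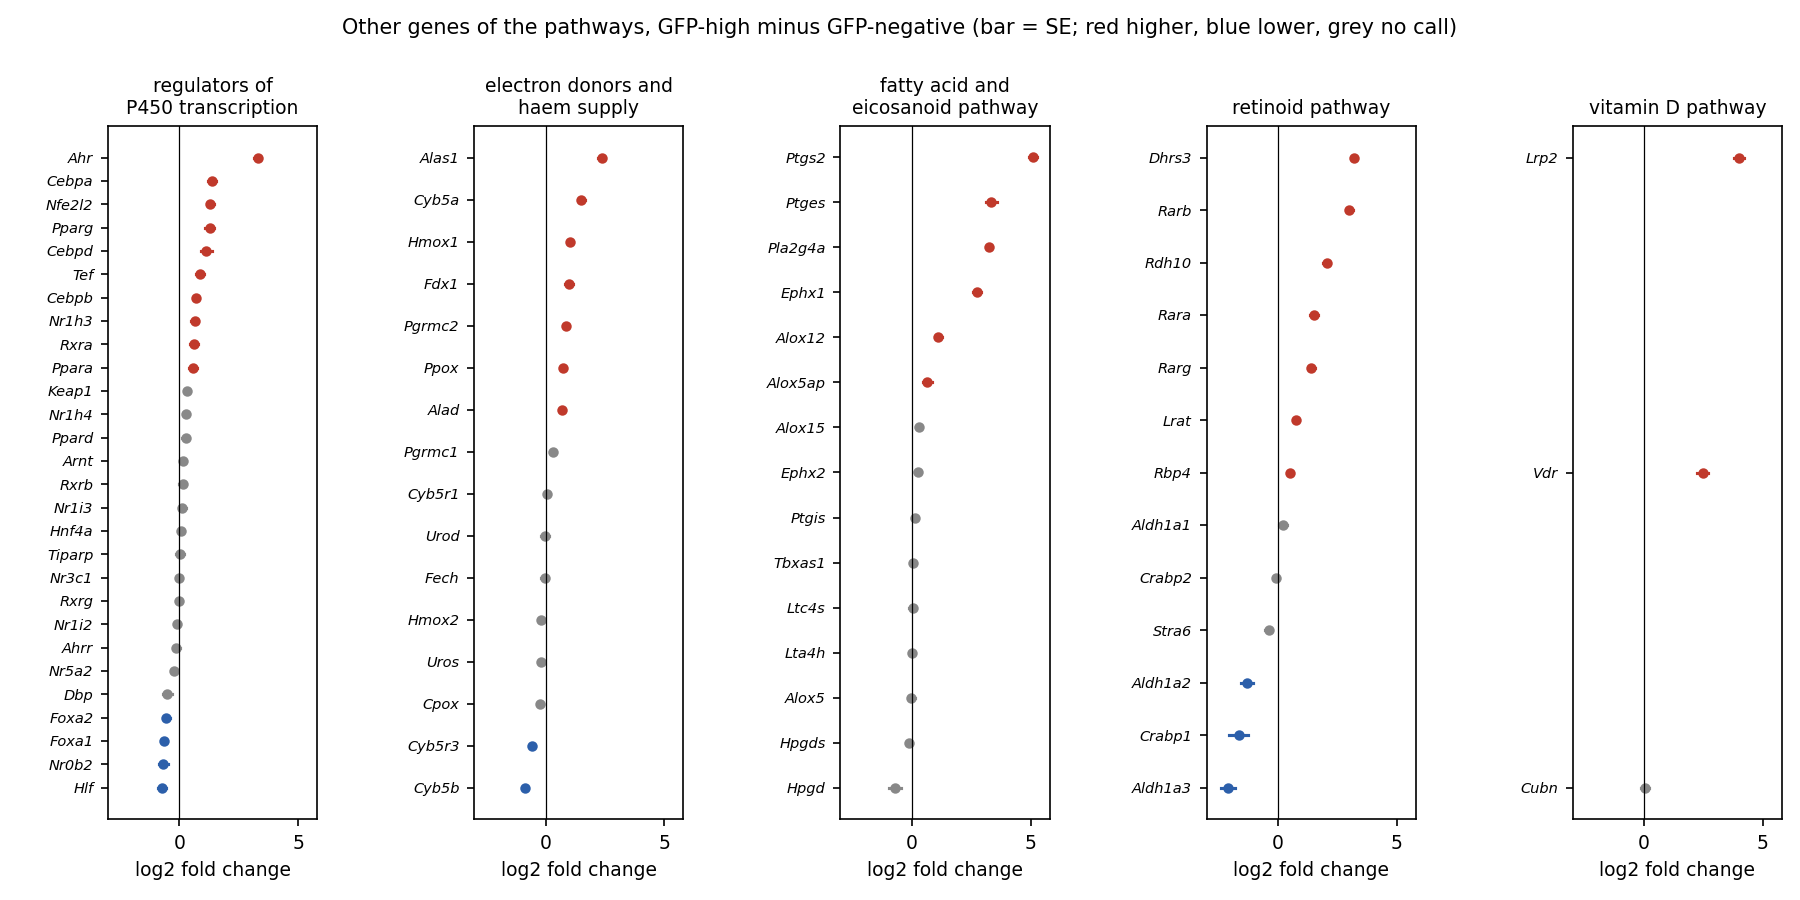
Log2 fold change (horizontal axis, GFP-high minus GFP-negative, bars SE, n = 3 per group) of the measured genes of 5 lists around the P450 enzymes. Ahr at 3.30, Alas1 at 2.37, Ptgs2 at 5.10, Dhrs3 at 3.20 and Lrp2 at 3.98 lead their lists; red is higher, blue lower and grey no call.

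Among the pathways that P450 enzymes share, 6 of 15 fatty acid and eicosanoid genes were higher and none lower. Ptgs2, the inducible cyclooxygenase, read 11.24, 10.71 and 10.88 in GFP-high and 6.08, 5.77 and 5.67 in GFP-negative arrays (5.10 ± 0.17, 34.3-fold, adjusted p = 3.28e-07 by limma). The prostaglandin E synthase Ptges (3.35 ± 0.22), the phospholipase Pla2g4a (3.25 ± 0.13), which frees arachidonic acid, and the epoxide hydrolase Ephx1 (2.74 ± 0.18) followed. Of 13 retinoid genes 7 were higher and 3 lower. The receptor Rarb (3.01 ± 0.15), the retinaldehyde reductase Dhrs3 (3.20 ± 0.14) and the retinol dehydrogenase Rdh10 (2.05 ± 0.15) were higher. Aldh1a3, which makes retinoic acid, was lower (-2.09 ± 0.30), beside Cyp26 genes without a call. Aldh1a2 (-1.29) and Crabp1 (-1.65) were also lower and are named with their values known. The vitamin D receptor Vdr was higher by 2.47 ± 0.23 and Lrp2, the megalin gene for uptake of vitamin D carriers, by 3.98 ± 0.21, beside Cyp24a1 at 0.05 ± 0.13. Of 11 genes of steroid, oxysterol and bile acid metabolism 1 was higher (Tspo, a mitochondrial cholesterol-binding protein, 1.24 ± 0.16) and 1 lower (the sterol demethylase Cyp51, -0.99 ± 0.16). Over all genes 13.0% were higher and 17.0% lower, and the median was 0.01; the list medians were 0.15 for the regulators, 0.19 for electron donors and haem, 0.28 for fatty acids, 0.50 for retinoids, 2.47 for the 3 vitamin D genes and -0.15 for steroids. The lists were chosen with earlier results of these data known.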

How the data were processed

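Total RNA of 3 GFP-high and 3 GFP-negative samples was measured on Affymetrix Mouse Gene 2.0 ST arrays. The authors deposited log2 values, for which the submitters' processing notes name RMA with no version. They ran from 0.989 to 13.72, with array medians of 5.30 to 5.43. Of 41344 rows 23520 named 1 gene, 1814 several and 16010 none; single-gene rows gave 22179 genes by the highest-mean row. RefSeq (GRCm38.p6) held the Entrez identifiers of 23327 of these rows and changed 0 symbols. Low genes stayed in.

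GFP-high was compared with GFP-negative with limma 3.58.1 in R 4.3.3 (lmFit and eBayes, 4.50 prior and 4 residual degrees of freedom), without a block, two-sided, with p-values adjusted by Benjamini-Hochberg over all genes and calls under 0.05. An exact permutation of 3 against 3 cannot go below p = 0.1, so none is given. The members, lists and rules were chosen with earlier results of these data known. Values by array are given for members called with an absolute log2 fold change of at least 1. They are also given for Cyp1a1, Cyp2a5, Cyp2g1, Hes1, Ahr, Alas1 and Ptgs2. Levels are given for all members of the small families, and up to 4 called genes are named for each pathway list. A few other genes are named with their values known. Tables were made in pandas 2.3.3 and numpy 2.4.6 under Python 3.11.15, and figures in matplotlib 3.10.9. Having 3 arrays in a group limits the precision.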

Additional observations from a re-analysis of the deposited data

Results flagged for a closer look

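Of 13 single-gene P450 rows outside the rule, those of Cyp2f2 and Cyp51 were called in a fit on every row of the table and the others were not. In that fit 3497 of all 41344 rows were higher and 4311 lower. The largest difference among the others was that of Cyp4f41-ps (0.49 ± 0.16, limma adjusted p = 0.0791, and 0.0408 in the fit on single-gene rows). The main row of Cyp2f2, the club cell P450 left out of the family here, was higher by 4.63 on the log2 scale and its second row by 4.06. Cyp51, the sterol demethylase whose symbol has no subfamily letter, had a log2 fold change of -0.99. The 6 rows that name several P450 genes or a P450 and another gene had no call, among them a row shared by Klkb1 and Cyp4v3 (0.33 ± 0.14).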

How the results depend on the processing

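The count of higher members was 16 and stayed between 13 and 16 under the other scalings, filters, row choices and variance settings, and between 13 and 15 when 1 array was left out. Requiring a log2 fold change of at least 1 left 10 higher members, and 1249 higher and 1335 lower genes overall. The count of lower members was 2, went to 1 when the lowest 30% of genes were left out, which removes Cyp2a4 from the test, and to 1 without moderation, and to 3 with quantile normalization, where Cyp4f37 was called, and was 2 or 3 when 1 array was left out. Over all genes, 2374 to 2734 higher and 2940 to 3382 lower were called with 1 array left out. No called member changed direction in the 16 alternative fits, and 11 of 18 kept their call in each that tested them. The other 7 were Cyp2g1, Cyp2j6, Cyp3a59, Cyp4f16, Cyp4f13, Cyp4v3 and Cyp2a4, the last 3 losing it only without moderation. Some of the 70 members without a call gained one in an alternative, at most 3 in any fit. Without GFP-high replicate 1 these were Cyp2a22, Cyp2a5 and Cyp2b9, and without GFP-negative replicate 1 Cyp2c37, Cyp2d13 and Cyp3a44. A fit on every row of the table, chosen after seeing the data, called 13 higher and 2 lower members. Deviations of same-numbered arrays from their group means had correlations of 0.114, -0.026 and -0.002. With 3 arrays in a group these values cannot settle whether the numbers pair the arrays. With the replicate number as a block 15 members were higher and 2 lower, the Cyp2g1 call being lost. Signal near the lower end of the scale limits what can be read for the 56 low members.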
